A study of Mus musculus with 26 samples.

Results

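Hdac3 is the catalytic subunit of the NCoR and SMRT corepressor complexes, which nuclear receptors and other transcription factors bring to DNA to keep genes low. In liver it is known for restraining lipid synthesis and for its part in the daily rhythm of metabolic genes. Loss of Hdac3 from hepatocytes is known to cause steatosis and liver injury in mice. The comparison described here sets livers of mice labelled Alb-Cre:Hdac3-/-, at 0 days after repeated partial hepatectomy (sPH in the labels, in full successive PH), against livers of wild-type mice (WT). The members were the 3 libraries titled Hdac3-/- 0d and the 3 titled WT, 6 of the 26 libraries of the series.

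All 6 samples were livers of mice aged 2 to 3 months, labelled C57BL/6, and no other allele or agent is named for either group. Cre under the albumin promoter acts in cells of the hepatocyte lineage, and which other liver cells keep Hdac3 was not tested. Whether WT mice were operated is not stated, nor when 0 days falls relative to the first and last operation, so genotype and operation cannot be told apart here. Nothing states that replicates came from different mice. The p-values measure the spread between libraries, estimated over 17 livers of the series fitted together, of which these are 6. RNA was sequenced from whole liver, and in such samples fewer cells of a type and less RNA per cell cannot be told apart.

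Library totals ran from 9739190 to 10272195 counts, with 15547 to 16329 genes listed per library. Uty, Kdm5d, Ddx3y and Eif2s3y, which are Y-linked, together took 0 to 3 counts per library, and Xist, the RNA that silences an X chromosome, took 185.1 to 316.9 CPM in all 6. Beta-globin counts divided the 0d libraries. Hbb-b1 and Hbb-b2, genes of 1 haplotype, summed to 104.8, 1.42 and 163.8 CPM in 0d replicates 1, 2 and 3 and to 0, 0 and 0.537 CPM in WT. Hbb-bs and Hbb-bt of the other haplotype summed to 116.7, 328.6 and 191.6 CPM in 0d and to 252.0, 241.6 and 149.5 CPM in WT. The strain background of 0d libraries is therefore in doubt, and its part in the results was not tested. Levels are CPM, counts per 1000000 counts of the library as scaled by TMM, in the order of replicates 1, 2 and 3. Fold changes are log2 of 0d over WT from edgeR's quasi-likelihood test, called at a Benjamini-Hochberg adjusted p of 0.05 over all 13617 genes tested. The value after ± is an approximate SE, the size of the fold change divided by the square root of the test's F statistic.

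Hdac3 (gene ID 15183, chromosome 18, 37936971 to 37955015, GRCm38) stood at 37.1, 34.2 and 32.1 CPM in WT and 44.6, 44.6 and 50.6 CPM in 0d. All 0d libraries lay above all WT libraries (log2 fold change 0.44 ± 0.15, adjusted p = 0.0316), but the call ended without WT replicate 2 (adjusted p = 0.0689), WT replicate 3 (adjusted p = 0.102), 0d replicate 1 (adjusted p = 0.0571), 0d replicate 2 (adjusted p = 0.0597) or 0d replicate 3 (adjusted p = 0.12). The files give 1 value per gene, not per exon, so they do not check the deletion, and the label alone gives the genotype. The call also ended with no filter on low counts. Among 18 corepressor and HDAC genes 3 rose and 2 fell (1 rise leaving out 0d replicate 1 or 2, 7 rises under library totals), where 18.3% of all genes tested rose and 19.0% fell. Tbl1x, a subunit of the same corepressor complex, stood at 7.26, 18.04 and 6.22 CPM in WT and 59.3, 49.4 and 45.2 CPM in 0d (log2 fold change 2.28 ± 0.55, adjusted p = 0.00455). Hdac11, a class IV deacetylase, fell from 79.1, 52.5 and 52.9 CPM to 26.1, 29.9 and 26.8 CPM (-1.16 ± 0.30, adjusted p = 0.00719). Ncor1, the scaffold of the complex, stood at 105, 105 and 101 CPM in WT and 124, 120.5 and 108 CPM in 0d and did not pass (adjusted p = 0.396).

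Of the genes tested, 5082 or 37.3% changed, with 2490 (18.3%) higher and 2592 (19.0%) lower in 0d. The counts of every list are to be read beside these shares. The median fold change over all genes was 0.0033 on the log2 scale. Changes of at least 4-fold were called for 695 genes upward and 478 downward, and changes of at least 16-fold for 171 and 102. In 56.6% of all genes tested the 3 libraries of a group lay wholly above or below those of the other. The same held for 4973 of the 5082 genes called. A statement below that the libraries of a called gene did not overlap therefore describes its levels and adds little to its call. The largest rises and falls named were also chosen among genes without overlap. Scaling by library totals moved the median of all genes to 0.30, and 69.7% of calls were then upward against 49.0%, so the counts of a list that move by over 1.5 times under that scaling are given with both values.

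Several marker lists moved with the groups, and their part in the results below was not tested. Hepatocyte markers fell in 10 of 12 genes, and their summed level was 169275 to 186282 CPM in WT and 47038 to 56970.3 CPM in 0d (1 rise under library totals). Duct and progenitor markers rose in 9 of 10, from sums of 69.9 to 86.7 CPM to 507 to 795 CPM. Macrophage markers rose in 9 and fell in 2 of 18, with sums of 484 to 1038 CPM in WT and 1158 to 1243 CPM in 0d (1 fall leaving out WT replicate 1 or 2 or 0d replicate 1, 2 or 3, 1 fall under library totals). Stellate cell and fibroblast markers rose in 8 of 15, with sums of 570.3 to 716 CPM in WT and 944 to 1398 CPM in 0d (5 rises leaving out WT replicate 3 or 0d replicate 1). Mesothelium markers, of which Krt19 is also on the duct list, rose in 2 of 5, with sums of 7.81 to 12.7 CPM in WT and 33.6 to 55.2 CPM in 0d (1 rise leaving out WT replicate 3 or 0d replicate 3, 1 fall leaving out WT replicate 2 or 0d replicate 1, 2 or 3). That fall is of a member that the filter on low counts kept out of the test of all libraries. None of 9 neutrophil markers passed by edgeR's test, 5 did at an unadjusted p of 0.05, DESeq2 called 6, limma-voom 0 and edgeR on the 6 libraries alone 7, with 2 under library totals, all upward. Their sums were 12.8 to 34.7 CPM in WT and 50.9 to 89.1 CPM in 0d. Lymphocyte markers rose in 1 and fell in 1 of 12 (0 to 2 rises and 1 or 2 falls without 1 library). Their sums overlapped, at 17.9 to 39.4 CPM in WT and 20.6 to 25.0 CPM in 0d. Sinusoidal endothelium markers rose in 1 of 11 (0 or 1 rise without 1 library). Their sums also overlapped, at 229 to 399.9 CPM in WT and 288 to 391 CPM in 0d. Adipocyte markers summed to 0 CPM in WT and at most 0.0885 CPM in 0d.

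Genes of glutathione synthesis and redox defence were higher in 0d. Nfe2l2 is a transcription factor that Keap1 holds for degradation until oxidants or electrophiles release it, and it then turns on genes that make, recycle and spend glutathione and thioredoxin. Of 37 tested genes of this kind 27 rose and 3 fell, against 18.3% and 19.0% of all genes, with a median log2 fold change of 1.24. Leaving out 1 library gave 24 to 26 rises. To show the letters the factor is known to bind, a stretch of 100 bases from the 250 before the RefSeq gene start (GRCm38.p6) is printed for 4 of the genes that rose. Each is written 5′ to 3′ along the gene's strand, and capitals mark matches to the antioxidant response element, TGACNNNGC, on either strand.
Nfe2l2, chr2:75704814-75704913, minus strand: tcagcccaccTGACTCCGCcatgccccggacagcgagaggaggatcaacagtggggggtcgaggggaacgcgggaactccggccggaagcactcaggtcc
Gclm, chr3:122245377-122245476, plus strand: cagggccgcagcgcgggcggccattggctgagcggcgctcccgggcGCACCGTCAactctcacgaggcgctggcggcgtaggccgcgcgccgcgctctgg
Txnrd1, chr10:82859068-82859167, plus strand: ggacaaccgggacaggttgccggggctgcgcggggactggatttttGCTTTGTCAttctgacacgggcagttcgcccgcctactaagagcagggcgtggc
Prdx1, chr4:116685420-116685519, plus strand: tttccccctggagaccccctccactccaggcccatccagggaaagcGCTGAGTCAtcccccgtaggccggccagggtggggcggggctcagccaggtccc
Among promoters of the list's tested genes, 9 of 39 (23.1%) held this motif in the 250 bases before the start. That compares with 11.7% of promoters of all genes tested and 10.2% of all 32851 promoters. The share was 12.2% among promoters of genes that rose and 12.3% among those of genes that fell. A match describes letters only, and motifs farther from the start were not searched.

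The factor itself, Nfe2l2 (gene ID 18024, chromosome 2, 75675513 to 75704663), stood at 80.2, 86.3 and 71.7 CPM in WT and 186, 172 and 167 CPM in 0d (log2 fold change 1.14 ± 0.26, adjusted p = 0.00343). Its inhibitor Keap1 stood at 67.6, 60.3 and 66.6 CPM in WT and 56.9, 58.3 and 58.5 CPM in 0d and did not pass (adjusted p = 0.347). Gclc (gene ID 14629, chromosome 9, 77754535 to 77794489), the catalytic subunit that limits glutathione synthesis, rose from 288, 387 and 222 CPM to 2802, 2646 and 2440.5 CPM (log2 fold change 3.14 ± 0.43, adjusted p = 0.000115). Nfe2l2 and Gclc stood higher in each 0d library than in any WT library. Keap1 stood lower in each on this scaling, but its log2 fold change ran from -0.22 to 0.14 over the alternative fits. Slc7a11, the carrier that brings in cystine for glutathione, went from 84.3, 100.5 and 87.6 CPM to 263, 277 and 295 CPM (1.62 ± 0.45, adjusted p = 0.0107). Gsr, which returns oxidised glutathione to its reduced form, was at 66.2, 69.8 and 52.7 CPM in WT and 205, 179 and 174 CPM in 0d (1.57 ± 0.22). For Slc7a11 and Gsr all 0d libraries lay above those of WT.

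Srxn1, sulfiredoxin, which repairs over-oxidised peroxiredoxins, rose to 603, 552 and 576 CPM from 33.7, 46.9 and 34.0 CPM (log2 fold change 3.92 ± 0.63, adjusted p = 0.000325). Txnrd1, the cytosolic thioredoxin reductase, rose from 116, 111 and 122 CPM to 281, 287 and 280.4 CPM (1.28 ± 0.17). Nqo1, a quinone reductase often used as a readout of the factor, stood at 9.21, 16.6 and 10.7 CPM in WT and 45.2, 42.8 and 48.0 CPM in 0d (log2 fold change 1.90 ± 0.59, adjusted p = 0.0194), and its call ended without WT replicate 1 (adjusted p = 0.0751) or WT replicate 3 (adjusted p = 0.0625). Srxn1, Txnrd1 and Nqo1 stood higher in each 0d library than in any WT library. Ephx1, microsomal epoxide hydrolase, rose from 251, 294 and 289.9 CPM to 1143, 1017 and 1102 CPM (1.97 ± 0.32). The mitochondrial superoxide dismutase Sod2 went the other way, from 185, 189 and 192 CPM to 108, 112 and 102 CPM (-0.81 ± 0.15, adjusted p = 0.000726). For Ephx1 all 0d libraries lay above those of WT, and for Sod2 all lay below.

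The glutathione transferases, which join glutathione to electrophiles, divided by member. Of 22 tested 9 rose and 7 fell, while their summed level went from 6239.7 to 6980.1 CPM to 25939 to 26626 CPM. Gstm3 (gene ID 14864, chromosome 3, 107963696 to 107969174) stood at 109, 185 and 81.4 CPM in WT and 8901, 8035 and 7634 CPM in 0d (log2 fold change 6.03 ± 0.99, adjusted p = 0.00038). Gsta1 (gene ID 14857, chromosome 9, 78230669 to 78242683) was among the 15 largest rises of all genes, at 0.576, 4.64 and 3.00 CPM in WT and 651, 732 and 715 CPM in 0d (log2 fold change 7.98 ± 1.21, adjusted p = 0.000211). Gstp1 rose from 394, 338 and 300.4 CPM to 2441, 3064 and 2812 CPM (log2 fold change 3.01 ± 0.27, adjusted p = 6.06e-06). Gstm3, Gsta1 and Gstp1 stood higher in each 0d library than in any WT library. Falls included Gstm6, from 64.8, 90.5 and 80.1 CPM to 18.8, 13.3 and 10.5 CPM (-2.47 ± 0.39), and Gstz1, which also degrades maleylacetoacetate in tyrosine breakdown, from 688, 639.8 and 744 CPM to 183, 182 and 191 CPM (-1.90 ± 0.31). Members of the alpha and mu classes are near copies of each other, so the share of reads given to each is uncertain. None of the 11 promoters of the transferases that rose held the antioxidant motif in 250 bases, while 4 of 28 promoters of all tested transferases did. For Gstm6 and Gstz1 all 0d libraries lay below those of WT.

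**Figure D1:**
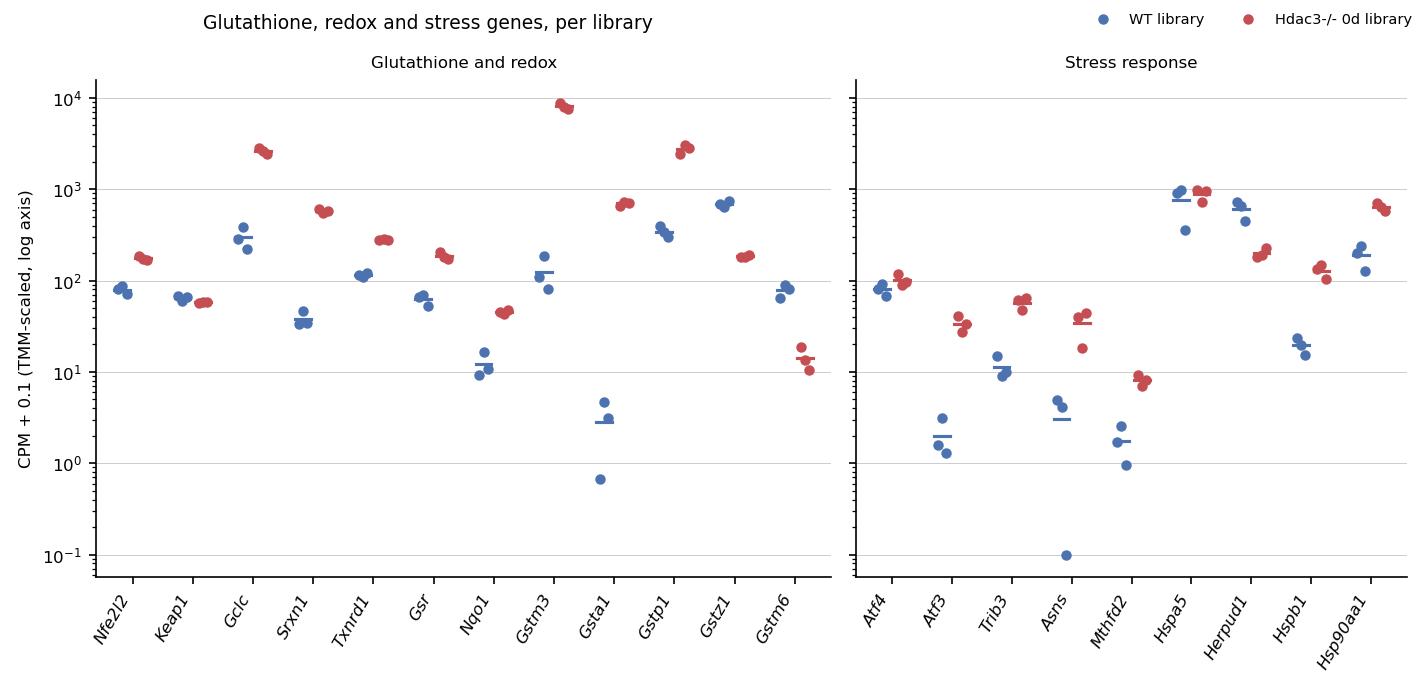
CPM + 0.1 on a log axis for glutathione, redox and stress genes in each library, with points for the 3 WT and 3 Hdac3-/- 0d libraries and a line at each group's mean. Gclc, Srxn1, Gstm3, Gsta1 and Gstp1 stand higher in every 0d library, Gstz1 and Gstm6 lower, and the points of Atf4 and Hspa5 overlap between groups.

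Abcc4 (gene ID 239273, chromosome 14, 118482692 to 118707856), an efflux pump for bile salts, nucleotides and prostaglandins in the basolateral membrane of hepatocytes, showed one of the largest rises among genes of high level. It stood at 2.99, 6.65 and 2.15 CPM in WT and 743, 718 and 706 CPM in 0d (log2 fold change 7.51 ± 1.39, adjusted p = 0.000811), a mean 184 times that of WT. On the same list of eicosanoid genes, Hpgd, which inactivates prostaglandins, fell from 141, 152 and 115 CPM to 30.7, 34.8 and 35.8 CPM (-2.01 ± 0.36, adjusted p = 0.000666). Ptgds, a prostaglandin D synthase, had 7.49, 6.86 and 0.858 CPM in WT and no count in any 0d library, at least 57.5-fold lower when 0d is set to 3 counts over the group. Abcc4 stood higher, and Hpgd and Ptgds lower, in each 0d library than in any WT library.

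The integrated stress response is a program in which phosphorylated eIF2alpha slows translation and lets Atf4 be made, and Atf4 then raises genes of amino acid supply. Of 32 genes 18 rose and 2 fell (median 1.28), and the rises numbered 16 to 18 without 1 library (1 fall leaving out WT replicate 1, 2 or 3 or 0d replicate 2 or 3, 0 falls under library totals). Atf4 mRNA, which is mainly controlled in translation, stood at 81.3, 90.6 and 67.7 CPM in WT and 117, 90.0 and 97.6 CPM in 0d, with overlap between groups (adjusted p = 0.143). Atf3, a stress-induced repressor, rose from 1.497, 3.06 and 1.18 CPM to 40.5, 27.0 and 33.0 CPM (log2 fold change 4.12 ± 0.74, adjusted p = 0.000667). Trib3, a pseudokinase induced late in the response, rose from 14.9, 8.86 and 9.77 CPM to 60.7, 47.2 and 64.1 CPM (log2 fold change 2.36 ± 0.32, adjusted p = 0.000111). For Atf3 and Trib3 all 0d libraries lay above those of WT. Asns, asparagine synthetase, was at 4.84, 4.01 and 0 CPM in WT and 40.4, 17.97 and 43.9 CPM in 0d (3.53 ± 0.74), lowest in replicate 2 among the 0d libraries. Aldh18a1, which starts proline synthesis, rose from 1.73, 4.01 and 1.07 CPM to 19.5, 16.7 and 21.7 CPM (3.08 ± 0.58). Ddit3, a mediator of stress-induced death, stood at 9.33, 13.6 and 3.65 CPM in WT and 29.0, 19.1 and 31.2 CPM in 0d (log2 fold change 1.58 ± 0.57, adjusted p = 0.0388), a call that ended without WT replicate 1 (adjusted p = 0.0892), WT replicate 3 (adjusted p = 0.139), 0d replicate 1 (adjusted p = 0.0923) or 0d replicate 3 (adjusted p = 0.101). Asns, Aldh18a1 and Ddit3 stood higher in each 0d library than in any WT library.

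Promoters of 2 of these genes are printed with matches to the element bound by C/EBP and ATF factors, TGATGNAA on either strand, in capitals.
Asns, chr6:7693210-7693309, minus strand: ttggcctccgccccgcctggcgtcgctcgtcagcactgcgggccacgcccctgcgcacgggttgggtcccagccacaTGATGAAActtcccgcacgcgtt
Slc7a11, chr3:50443626-50443725, minus strand: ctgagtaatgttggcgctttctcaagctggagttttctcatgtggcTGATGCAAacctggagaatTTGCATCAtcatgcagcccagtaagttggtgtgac
Of the 29 promoters of tested genes on the list 7 (24.1%) held this element before the start. That compares with 2.12% of promoters of all genes tested and 3.45% of all promoters. Promoters of the list's genes that rose held it in 3 of 15. Over all lists and genes, the share was 2.5% among promoters of genes that rose and 2.34% among those of genes that fell.

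Folding genes of the endoplasmic reticulum form a related list. Of 30 tested 3 rose and 5 fell, both below the share of all genes (5 rises under library totals, 2 falls leaving out WT replicate 1 or 0d replicate 2, 3 falls leaving out WT replicate 2 or 0d replicate 1 or 3, 10 falls leaving out WT replicate 3, 3 falls under library totals). The chaperone Hspa5 stood at 914, 993 and 361 CPM in WT and 985, 733 and 952 CPM in 0d and overlapped (adjusted p = 0.59). Herpud1, a factor of protein disposal from that compartment, fell from 721, 653 and 454 CPM to 182, 189 and 228 CPM (log2 fold change -1.61 ± 0.41, adjusted p = 0.0064). Dnajb9, a co-chaperone there, rose from 51.6, 97.1 and 39.4 CPM to 174, 145 and 148 CPM (1.31 ± 0.31). For Dnajb9 all 0d libraries lay above those of WT, and for Herpud1 all lay below. Of 22 heat shock chaperones of the cytosol and mitochondria 9 rose and 1 fell (0 falls leaving out WT replicate 1 or 0d replicate 1, 2 or 3, 2 falls leaving out WT replicate 2, 0 falls under library totals). Hspb1, a small chaperone that binds actin, rose from 23.4, 19.6 and 15.3 CPM to 132, 147 and 103 CPM (log2 fold change 2.71 ± 0.33, adjusted p = 6.17e-05). Hsp90aa1, the inducible Hsp90, rose from 203, 242 and 127 CPM to 707, 643 and 579 CPM (1.75 ± 0.29). Hspa1b, the stress-induced Hsp70, ranged widely, at 96.3, 307 and 17.8 CPM in WT and 234, 130.1 and 77.3 CPM in 0d, and did not pass. Hspb1 and Hsp90aa1 stood higher in each 0d library than in any WT library. Hspa1b overlapped between the groups.

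Sqstm1, a cargo receptor of autophagy and itself a known Nfe2l2 target, rose from 514, 481 and 414 CPM to 1956, 1929 and 1918 CPM (log2 fold change 2.04 ± 0.35, adjusted p = 0.000525). Among 26 autophagy genes, Sqstm1 included, 2 rose and 3 fell (5 rises under library totals). Lysosome genes rose in 15 and fell in 3 of 40 (7 rises leaving out WT replicate 3, 8 rises leaving out 0d replicate 1, 9 rises leaving out WT replicate 1 or 0d replicate 2, 23 rises under library totals, 1 fall leaving out WT replicate 1 or 0d replicate 2 or 3). The cysteine protease Ctsl stood at 672, 453 and 605 CPM in WT and 2589, 2821 and 2963 CPM in 0d (log2 fold change 2.27 ± 0.48, adjusted p = 0.00204). Ctsd, an aspartic protease of lysosomes, rose from 408, 416 and 398 CPM to 1124, 1136 and 1140.3 CPM (1.48 ± 0.30). For Sqstm1, Ctsl and Ctsd all 0d libraries lay above those of WT.

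Rises outnumbered falls among genes of lipid storage and desaturation. Of 24 tested genes of lipid droplets and Pparg targets 12 rose and 6 fell. Of 16 desaturases, elongases and acyl-CoA synthetases 7 rose and 1 fell (0 falls leaving out WT replicate 2 or 0d replicate 3). Pparg, a receptor that promotes fat storage, stood at 10.0, 10.4 and 7.62 CPM in WT and 15.5, 17.6 and 13.9 CPM in 0d (log2 fold change 0.74 ± 0.24, adjusted p = 0.0256), and its call ended without WT replicate 1 (adjusted p = 0.0528), WT replicate 3 (adjusted p = 0.102), 0d replicate 1 (adjusted p = 0.0599) or 0d replicate 2 (adjusted p = 0.0952). Plin2, the main coat protein of hepatic lipid droplets, rose from 399.5, 667 and 483 CPM to 2180.2, 2482 and 2153 CPM (log2 fold change 2.14 ± 0.47, adjusted p = 0.00273). Cidec, which enlarges droplets by fusing them, rose from 4.49, 2.74 and 2.47 CPM to 68.3, 108 and 84.9 CPM (log2 fold change 4.75 ± 1.01, adjusted p = 0.00216). Pparg, Plin2 and Cidec stood higher in each 0d library than in any WT library. Mogat2, an intestinal monoacylglycerol acyltransferase that makes diacylglycerol, stood at 0, 0.844 and 0.429 CPM in WT and 28.8, 26.3 and 40.6 CPM in 0d (log2 fold change 6.16 ± 1.12, adjusted p = 0.000736). Plin4, another coat protein of the same family, fell from 19.6, 12.3 and 33.1 CPM to 1.64, 4.07 and 2.53 CPM (-2.97 ± 0.51, adjusted p = 0.000494). Cidea and Mogat1 were near 0 in all 6 libraries and were not tested. For Mogat2 all 0d libraries lay above those of WT, and for Plin4 all lay below.

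Scd2, a desaturase that adult mouse liver normally makes little of, stood at 3.69, 7.28 and 4.08 CPM in WT and 407, 313 and 340.1 CPM in 0d (log2 fold change 6.13 ± 0.82, adjusted p = 9.71e-05), with no overlap. Scd1, the main hepatic desaturase, rose from 5077, 7963 and 9674 CPM to 29032, 23897 and 23921 CPM (log2 fold change 1.76 ± 0.49, adjusted p = 0.0114), a call that ended without WT replicate 1 (adjusted p = 0.0551). Elovl7, an elongase of long saturated acyl chains, went from 1.15, 1.58 and 2.04 CPM to 42.2, 46.7 and 40.3 CPM (4.74 ± 0.97). Scd2, Scd1 and Elovl7 stood higher in each 0d library than in any WT library. Acsl4, which activates arachidonate, rose from 31.0, 50.2 and 19.5 CPM to 237, 245 and 218 CPM (log2 fold change 2.80 ± 0.41, adjusted p = 0.000164). Fads2, the delta-6 desaturase of polyunsaturated fatty acids, rose from 423, 465 and 353 CPM to 1208, 1664 and 1402 CPM (1.78 ± 0.38). For Acsl4 and Fads2 all 0d libraries lay above those of WT.

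Membrane lipid enzymes went in both directions, as all genes tested did. Among 32 sphingolipid genes 10 (31.25%) rose and 6 (18.75%) fell, against 18.3% and 19.0% of all genes. Smpd3, the neutral sphingomyelinase that releases ceramide, stood at 3.45, 4.22 and 2.25 CPM in WT and 48.7, 50.1 and 54.0 CPM in 0d (log2 fold change 3.94 ± 0.42, adjusted p = 2.13e-05). Sptlc2, a subunit of the enzyme that starts sphingolipid synthesis, rose from 10.0, 17.2 and 12.2 CPM to 49.3, 46.1 and 45.8 CPM (1.84 ± 0.31). B4galt6, which makes lactosylceramide, rose from 3.22, 3.27 and 2.79 CPM to 36.3, 34.9 and 29.2 CPM (3.43 ± 0.55). Smpd3, Sptlc2 and B4galt6 stood higher in each 0d library than in any WT library. Receptors of sphingosine 1-phosphate moved apart, and S1pr1 fell from 48.6, 41.6 and 44.2 CPM to 10.0, 8.32 and 10.9 CPM (-2.20 ± 0.42). S1pr2 went from 2.65, 3.06 and 5.04 CPM to 12.4, 13.7 and 12.5 CPM (1.84 ± 0.31). Of 34 phospholipid genes 7 rose and 8 fell, close to the share of all genes (4 rises leaving out WT replicate 1 or 3 or 0d replicate 1, 11 rises under library totals, 5 falls under library totals). Pemt, which methylates phosphatidylethanolamine to phosphatidylcholine, fell from 279.6, 199 and 231 CPM to 62.5, 96.7 and 84.2 CPM (log2 fold change -1.55 ± 0.20, adjusted p = 8.22e-05). For S1pr2 all 0d libraries lay above those of WT, and for S1pr1 and Pemt all lay below.

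Apolipoproteins and lipoprotein enzymes fell in 18 of 33 and rose in 3 (6 rises under library totals). Apoa4 (gene ID 11808, chromosome 9, 46240844 to 46243458), a lipid-responsive apolipoprotein of intestine and liver, rose from 299.5, 281 and 572 CPM to 11524, 16406 and 12123 CPM (log2 fold change 5.12 ± 1.17, adjusted p = 0.00344). Apob, the core protein of very low density lipoprotein, stood at 3055, 3286 and 2575 CPM in WT and 2656, 3195 and 2671 CPM in 0d and overlapped (adjusted p = 0.87). Lcat, which esterifies cholesterol on high density lipoprotein, fell from 768, 469 and 579 CPM to 67.2, 63.2 and 78.3 CPM (log2 fold change -3.12 ± 0.39, adjusted p = 6.31e-05). Apoa4 stood higher, and Lcat lower, in each 0d library than in any WT library. Lipc, hepatic lipase, fell from 208, 166 and 191 CPM to 40.5, 32.5 and 44.4 CPM (-2.27 ± 0.35). Apom, carrier of sphingosine 1-phosphate, fell from 304, 209 and 244 CPM to 48.4, 61.4 and 63.9 CPM (-2.12 ± 0.32). For Lipc and Apom all 0d libraries lay below those of WT.

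Growth factor genes changed on both the ligand and the receptor side. Ligands of the EGF family bind Egfr and its relatives Erbb3 and Erbb4, and liver regeneration draws on them. Of 25 tested genes 9 (36%) rose and 4 (16%) fell, against 18.3% and 19.0% of all genes. With 1 library left out the rises numbered 6 to 9 and the falls 3 or 4. Nrg1 (gene ID 211323, chromosome 8, 31807452 to 32891609), a ligand of Erbb3 and Erbb4, stood at 0.115, 0.106 and 0 CPM in WT and 9.94, 7.52 and 9.24 CPM in 0d (122-fold higher by summed counts, 95% counting interval 33.6 to 1015, adjusted p = 0.000321). Areg, an Egfr ligand, stood at 0.115, 0 and 0 CPM in WT and 2.25, 2.12 and 8.63 CPM in 0d (119-fold higher by summed counts, 95% counting interval 21.1 to 4740), with the highest 0d level in replicate 3. Tgfa, another Egfr ligand, rose from 17.3, 18.5 and 17.2 CPM to 34.2, 35.5 and 33.0 CPM (0.96 ± 0.23). Nrg1, Areg and Tgfa stood higher in each 0d library than in any WT library. The receptor Egfr (gene ID 13649, chromosome 11, 16752203 to 16913907) fell from 315, 206 and 186 CPM to 64.0, 62.2 and 67.2 CPM (log2 fold change -1.87 ± 0.48, adjusted p = 0.00711). Errfi1, an intracellular inhibitor of Egfr, fell from 1464, 1301 and 1189.6 CPM to 372, 375 and 412 CPM (log2 fold change -1.77 ± 0.32, adjusted p = 0.000665). Dusp4, a phosphatase of MAP kinases that their activity induces, rose from 0.23, 0.422 and 0.644 CPM to 11.1, 10.6 and 9.85 CPM (log2 fold change 4.56 ± 0.63, adjusted p = 0.000115). For Dusp4 all 0d libraries lay above those of WT, and for Egfr and Errfi1 all lay below. Erbb3 stood at 27.1, 71.8 and 38.3 CPM in WT and 103, 93.9 and 88.4 CPM in 0d without overlap and did not pass (adjusted p = 0.0942).

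Among 39 genes of FGF, HGF and insulin-like growth factor signalling 9 (23.1%) rose and 11 (28.2%) fell, near the 18.3% and 19.0% of all genes. Ghr, the growth hormone receptor, went from 437, 417 and 336 CPM to 117, 139 and 125 CPM (log2 fold change -1.64 ± 0.40, adjusted p = 0.00517). Igf1 (gene ID 16000, chromosome 10, 87858265 to 87937047), the main hepatic target of growth hormone, fell from 481, 546 and 529 CPM to 57.5, 64.2 and 72.9 CPM (log2 fold change -2.999 ± 0.40, adjusted p = 8.74e-05). Igfals, which stabilises the circulating hormone complex, fell from 107, 86.6 and 101 CPM to 14.6, 18.5 and 20.1 CPM (-2.47 ± 0.31). Ghr, Igf1 and Igfals stood lower in each 0d library than in any WT library. Igfbp2, a binding protein, fell from 884, 448 and 364 CPM to 15.6, 22.3 and 41.7 CPM (-4.41 ± 0.58). Igfbp1, a binding protein that insulin represses, rose from 247, 213 and 73.2 CPM to 474, 492 and 475 CPM (log2 fold change 1.44 ± 0.42, adjusted p = 0.014), a call that ended without WT replicate 3 (adjusted p = 0.0515). Prlr, the prolactin receptor, fell from 347, 327 and 307 CPM to 85.1, 75.8 and 76.7 CPM (-2.05 ± 0.25). For Igfbp1 all 0d libraries lay above those of WT, and for Igfbp2 and Prlr all lay below. Fgfr1, a receptor of fibroblast growth factors that hepatocytes carry little of, rose from 5.76, 4.85 and 4.29 CPM to 27.7, 20.4 and 32.9 CPM (log2 fold change 2.44 ± 0.26, adjusted p = 2.11e-05).

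Among 47 genes of the TGF-beta superfamily 13 (27.7%) rose and 6 (12.8%) fell, against 18.3% and 19.0% of all genes (20 rises under library totals). Bmp8b, a ligand of brown fat and brain, stood at 0.115, 0.106 and 0 CPM in WT and 13.4, 10.6 and 10.98 CPM in 0d (160.4-fold higher by summed counts, 95% counting interval 44.1 to 1329, adjusted p = 0.000472). Fst, follistatin, which binds activins, rose from 2.42, 0.528 and 2.15 CPM to 20.9, 16.1 and 13.8 CPM (log2 fold change 3.32 ± 0.40, adjusted p = 5.78e-05). Inhbc, the activin subunit typical of hepatocytes, fell from 117, 81.7 and 65.0 CPM to 6.83, 6.46 and 7.06 CPM (log2 fold change -3.69 ± 0.38, adjusted p = 2.11e-05). Bmp8b and Fst stood higher, and Inhbc lower, in each 0d library than in any WT library. Tgfb2 rose from 0.921, 0.95 and 0.537 CPM to 4.41, 4.78 and 3.57 CPM (2.39 ± 0.46). Of 25 Hippo pathway genes and Yap1 targets 12 rose and 2 fell (6 rises leaving out WT replicate 1 or 3 or 0d replicate 1, 1 fall leaving out WT replicate 3 or 0d replicate 1, 1 fall under library totals). Ajuba, an inhibitor of the Lats kinases, rose from 7.49, 4.96 and 9.44 CPM to 37.3, 29.7 and 37.0 CPM (log2 fold change 2.25 ± 0.44, adjusted p = 0.00116). Nt5e, a cell surface enzyme that makes adenosine, rose from 36.2, 43.5 and 51.1 CPM to 282, 234 and 243 CPM (2.54 ± 0.71). For Tgfb2, Ajuba and Nt5e all 0d libraries lay above those of WT. Ccn2, a target commonly read for Yap1, stood at 27.8, 17.3 and 19.6 CPM in WT and 32.7, 32.2 and 52.8 CPM in 0d and did not pass. In the Notch pathway 6 (30%) of 20 genes rose and 4 (20%) fell, against 18.3% and 19.0% of all genes (2 falls leaving out WT replicate 1, 2 falls under library totals). The ligand Jag1 went from 2.88, 2.53 and 3.11 CPM to 13.1, 8.94 and 9.15 CPM (1.87 ± 0.26). Ccn2 and Jag1 stood higher in each 0d library than in any WT library.

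**Figure D2:**
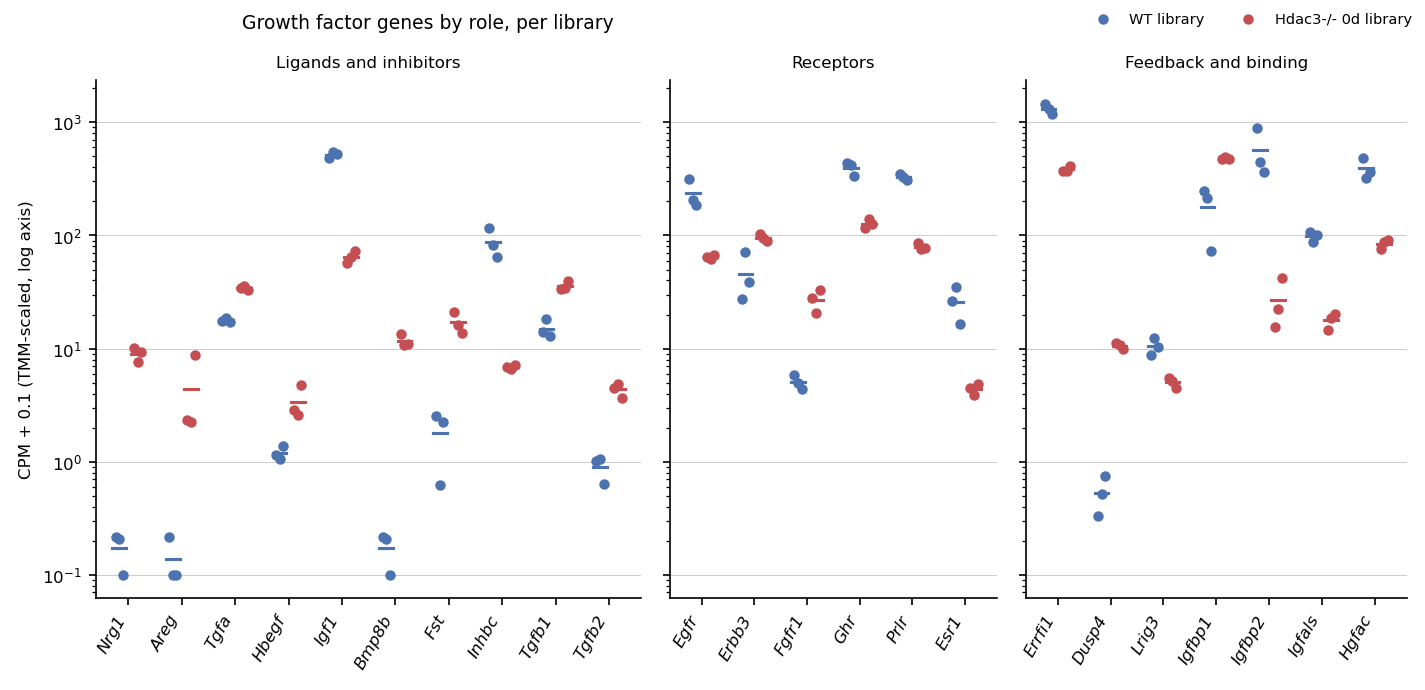
CPM + 0.1 on a log axis for ligands, receptors and feedback or binding proteins of growth factor pathways, with 1 point per library and a line at each group's mean. Nrg1, Bmp8b, Fst and Dusp4 stand higher in all 3 Hdac3-/- 0d libraries, and Igf1, Inhbc, Egfr, Ghr, Prlr and Errfi1 lower.

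Structural genes of the cell were higher. Of 40 cytoskeletal genes 24 rose and 2 fell (15 rises leaving out WT replicate 1, 0 falls leaving out WT replicate 1, 2 or 3 or 0d replicate 1, 2 or 3, 0 falls under library totals). Tubb2b, a beta-tubulin best known from neurons, stood at 0, 0.211 and 0 CPM in WT and 28.0, 50.5 and 56.4 CPM in 0d (617-fold higher by summed counts, 95% counting interval 170.5 to 5098, adjusted p = 0.000709). Tpm1, a tropomyosin that coats actin, rose from 31.6, 44.3 and 29.5 CPM to 121, 122 and 129.9 CPM (log2 fold change 1.82 ± 0.33, adjusted p = 0.000713). Ezr, ezrin, which ties actin to the membrane of epithelial cells, rose from 6.10, 6.65 and 8.58 CPM to 27.4, 29.8 and 40.7 CPM (2.20 ± 0.37). For Tubb2b, Tpm1 and Ezr all 0d libraries lay above those of WT. Of 20 annexins and S100 proteins, which bind calcium and membranes, 11 rose and 3 fell (7 rises leaving out WT replicate 1 or 0d replicate 3). Anxa2 rose from 11.1, 12.98 and 11.9 CPM to 232, 253 and 251 CPM (log2 fold change 4.35 ± 0.76, adjusted p = 0.000533). Anxa5 rose from 88.7, 95.2 and 61.6 CPM to 447, 518 and 476 CPM (2.55 ± 0.43). S100a1, an S100 protein known from muscle, fell from 86.3, 76.9 and 88.6 CPM to 17.4, 21.7 and 25.1 CPM (-1.97 ± 0.27). Anxa2 and Anxa5 stood higher, and S100a1 lower, in each 0d library than in any WT library. Among 42 junction and adhesion genes 22 rose and 4 fell. Cldn4, a claudin of simple epithelia, stood at 0, 0 and 0.107 CPM in WT and 8.47, 4.69 and 11.2 CPM in 0d (223-fold higher by summed counts, 95% counting interval 39.7 to 8848, adjusted p = 0.000409). The gap junction proteins of hepatocytes moved apart, as Gjb1 fell from 858, 783 and 706 CPM to 358, 372 and 376 CPM (-1.08 ± 0.29). Gjb2 rose from 375, 334 and 251 CPM to 847, 775 and 851 CPM (1.37 ± 0.19). For Cldn4 and Gjb2 all 0d libraries lay above those of WT, and for Gjb1 all lay below. These genes are also expressed in duct cells, whose marker sums are given above.

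Matrix proteases and their inhibitors rose in 19 and fell in 2 of 29 (median 2.12), with 17 to 19 rises without 1 library (1 fall leaving out WT replicate 3 or 0d replicate 1 or 2, 1 fall under library totals). Mmp7, matrilysin, a protease of injured epithelia, stood at 0.115, 0 and 0.107 CPM in WT and 23.3, 15.6 and 36.6 CPM in 0d (346-fold higher by summed counts, 95% counting interval 95.6 to 2865, adjusted p = 0.00023). Mmp12, an elastase made by macrophages, stood at 0.345, 0.633 and 0.107 CPM in WT and 62.7, 69.1 and 35.0 CPM in 0d (log2 fold change 7.21 ± 0.81, adjusted p = 3.04e-05). Mmp13, a collagenase, stood at 0.115, 0.317 and 0.107 CPM in WT and 8.90, 15.9 and 7.41 CPM in 0d (5.79 ± 0.84). Mmp7, Mmp12 and Mmp13 stood higher in each 0d library than in any WT library. Beside these, the macrophage genes Gpnmb and Trem2, which mark lipid-laden macrophages, were higher. Gpnmb stood at 0.345, 0.844 and 0 CPM in WT and 76.8, 54.0 and 24.7 CPM in 0d (log2 fold change 6.97 ± 0.83, adjusted p = 4.79e-05). Trem2 rose from 0.345, 0.211 and 0.322 CPM to 10.5, 8.50 and 7.76 CPM (4.88 ± 0.82), while the resident Kupffer cell marker Timd4 fell from 11.1, 22.1 and 8.05 CPM to 2.77, 3.72 and 4.18 CPM (-1.95 ± 0.34). For Gpnmb and Trem2 all 0d libraries lay above those of WT, and for Timd4 all lay below. Timd4 does not stand for the other Kupffer cell markers of the macrophage list. Of that list's 18 genes 9 rose and 2 fell, Timd4 among the falls, and 16 had a log2 fold change above 0.

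Chemokine and cytokine genes rose in 15 and fell in 6 of 36. Ccr2, the receptor that brings monocytes into tissue, rose from 1.61, 0.739 and 0.858 CPM to 8.04, 10.2 and 5.93 CPM (log2 fold change 2.91 ± 0.54, adjusted p = 0.000898). Cxcl12, a chemokine that holds blood cells in place, fell from 318, 300 and 326 CPM to 115, 90.8 and 111 CPM (-1.58 ± 0.23). Cxcl1, a neutrophil attractant, ranged from 1.18 to 46.5 CPM in WT and stood at 7.95, 8.23 and 8.11 CPM in 0d, and did not pass. Ccr2 stood higher, and Cxcl12 lower, in each 0d library than in any WT library. Cxcl1 overlapped between the groups.

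Antigen presentation genes divided by class. Class I molecules show peptides of the cell's own proteins and occur on nearly all cells, and class II molecules occur on macrophages, dendritic cells and B cells. The list was taken apart after its values were seen. Of 17 genes of class I and its peptide supply 11 fell and 0 rose, and of 7 class II genes 3 rose and 0 fell. The class II rises numbered 0 leaving out WT replicate 1 or 3, 1 leaving out 0d replicate 1 or 3, 2 leaving out 0d replicate 2 and 7 leaving out WT replicate 2. H2-K1 fell from 485, 563 and 757 CPM to 258, 296 and 273 CPM (log2 fold change -1.13 ± 0.24, adjusted p = 0.00188), and Nlrc5, the factor that drives class I genes, from 17.6, 39.5 and 12.3 CPM to 7.34, 8.41 and 4.36 CPM (-1.79 ± 0.42, -1.16 without WT replicate 2). Scaling by library totals left 5 falls and 4 rises over the whole list. H2 genes differ between mouse strains, and the beta-globin counts above show a second haplotype in 0d replicates 1 and 3, whose part was not tested. For H2-K1 and Nlrc5 all 0d libraries lay below those of WT.

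Genes of the respiratory chain, which are encoded in the nucleus and imported as proteins, were lower. Of 78 tested 59 fell and 0 rose, with 50 to 59 falls without 1 library and 41 under library totals. At an unadjusted p of 0.05 edgeR gave 66 falls and 0 rises, and DESeq2 and limma-voom also called 0 rises. The falls took 25 of 37 genes of complex I, 3 of 4 of complex II, 7 of 9 of complex III, 10 of 13 of complex IV and 13 of 14 of the ATP synthase, with 1 of complex II and 6 of complex IV under library totals. Medians of the log2 fold change lay between -0.98 in complex IV and -0.65 in complex II. Cox8a, a subunit of cytochrome c oxidase, fell from 97.5, 95.8 and 105 CPM to 43.7, 36.2 and 39.2 CPM (log2 fold change -1.32 ± 0.17, adjusted p = 6.68e-05). Ndufs8, an iron-sulfur subunit of complex I, fell from 52.4, 46.6 and 55.0 CPM to 16.7, 23.3 and 23.3 CPM (log2 fold change -1.28 ± 0.20, adjusted p = 0.000289). Uqcrq, of complex III, fell from 235, 202 and 217 CPM to 93.2, 104 and 91.0 CPM (-1.18 ± 0.20). Cox8a, Ndufs8 and Uqcrq stood lower in each 0d library than in any WT library. Ppargc1a, a coactivator of mitochondrial genes, fell from 23.4, 16.04 and 9.12 CPM to 3.20, 4.07 and 2.96 CPM (log2 fold change -2.24 ± 0.40, adjusted p = 0.000698). In no library did the summed level of the group reach the other group's range, 10260.4 to 11633 CPM in WT and 6576 to 7221 CPM in 0d.

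Genes for ribosomal proteins gave no such count. Cytosolic ribosomal proteins fell in 9 of 80, under the 19.0% of all genes, and in 0 under library totals (2 falls leaving out WT replicate 1, 3 falls leaving out 0d replicate 1, 4 falls leaving out WT replicate 3 or 0d replicate 2 or 3). Mitochondrial ribosomal proteins fell in 25 and rose in 4 of 77, against 5 and 8 under library totals, where rises then outnumbered falls (1 rise leaving out WT replicate 2 or 0d replicate 2 or 3, 2 rises leaving out WT replicate 1, 15 falls leaving out WT replicate 1 or 3). Rpl34, at 65.9, 48.3 and 68.1 CPM in WT and 35.3, 25.6 and 15.8 CPM in 0d, has a near-identical copy, Rpl34-ps1, which was at 0 in WT and at 29.98, 48.6 and 53.8 CPM in 0d, so its value is uncertain, and its call (adjusted p = 0.0184) ended without WT replicate 1 (adjusted p = 0.0528), WT replicate 3 (adjusted p = 0.0525) or 0d replicate 3 (adjusted p = 0.0801). Rpl34-ps1 and the beta-globin genes bs and bt were chosen after their values were seen.

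**Figure D3:**
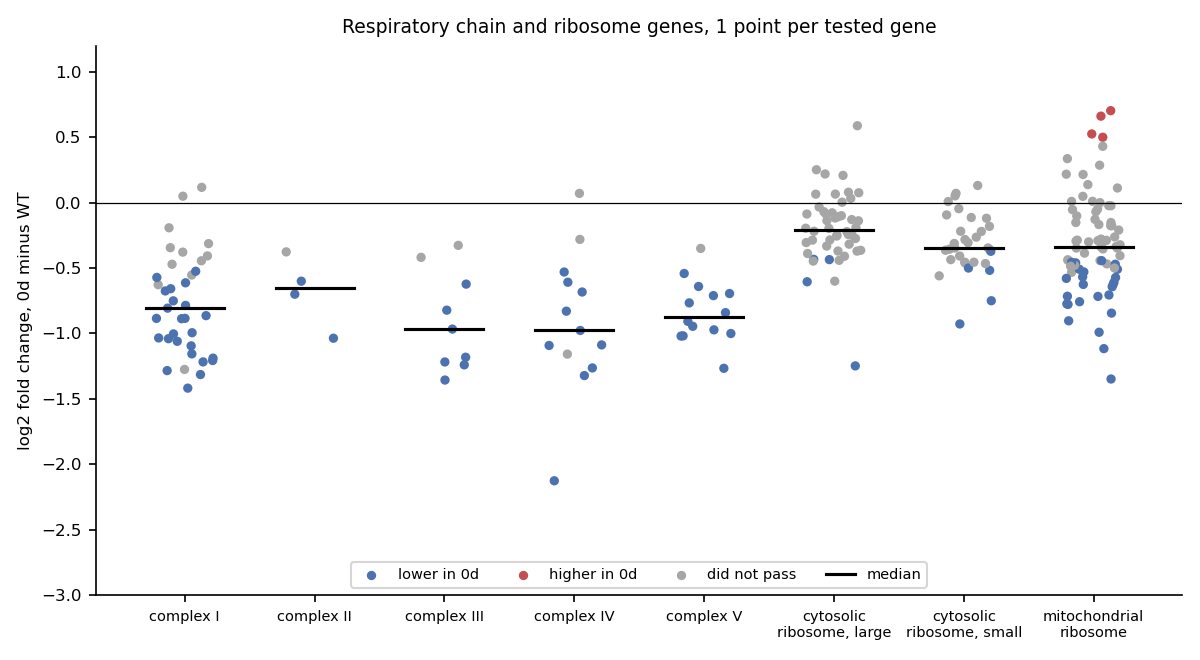
Log2 fold change of 0d over WT for each tested gene of the 5 respiratory complexes, the cytosolic ribosome and the mitochondrial ribosome, 1 point per gene, blue where lower, red where higher and grey where the test did not pass, with a line at the median. Medians of the 5 complexes lie between -0.98 and -0.65, and those of the 2 cytosolic ribosome subunits at -0.21 and -0.35.

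Several enzymes of glucose use were higher and several of glucose output lower in 0d. Of 39 genes of glycolysis, the pentose phosphate path and pyruvate 18 rose and 7 fell (11 rises leaving out WT replicate 1 or 0d replicate 1). Hk2, a hexokinase of muscle and growing cells, rose from 1.84, 1.06 and 1.40 CPM to 22.7, 20.6 and 19.3 CPM (log2 fold change 3.86 ± 0.55, adjusted p = 0.000134). Pkm, the pyruvate kinase of most tissues outside the adult hepatocyte, rose from 17.7, 31.4 and 18.9 CPM to 138, 126 and 103 CPM (log2 fold change 2.43 ± 0.44, adjusted p = 0.000712). Pgd, which makes NADPH in the pentose phosphate path and is a known Nfe2l2 target, rose from 42.7, 66.7 and 70.5 CPM to 403, 394 and 399.7 CPM (log2 fold change 2.73 ± 0.52, adjusted p = 0.00107). For Hk2, Pkm and Pgd all 0d libraries lay above those of WT. Pck1, which starts gluconeogenesis from oxaloacetate, fell from 5896, 2603 and 3638 CPM to 755, 885 and 1126 CPM (-2.13 ± 0.48). Slc37a4, the carrier of glucose 6-phosphate into the endoplasmic reticulum, fell from 187, 124 and 333 CPM to 34.4, 37.6 and 40.2 CPM (log2 fold change -2.52 ± 0.37, adjusted p = 0.000173). Ppp1r3c, which brings a phosphatase to glycogen, fell from 35.2, 45.0 and 72.004 CPM to 9.33, 4.51 and 3.14 CPM (-3.16 ± 0.53). Pck1, Slc37a4 and Ppp1r3c stood lower in each 0d library than in any WT library. Glycogen and gluconeogenesis genes fell in 11 and rose in 6 of 24 (3 rises leaving out WT replicate 2 or 3 or 0d replicate 1 or 2), and Pygb, the brain type of glycogen phosphorylase, was among the rises at 9.33, 11.7 and 5.79 CPM in WT and 36.8, 35.7 and 42.4 CPM in 0d (2.10 ± 0.43).

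One-carbon metabolism, in which methionine yields the methyl donor S-adenosylmethionine, fell in 19 of 34 genes and rose in 5. Mat1a, the methionine adenosyltransferase of adult liver, fell from 2627, 2440.3 and 3556 CPM to 1224, 1373 and 1198 CPM (log2 fold change -1.18 ± 0.26, adjusted p = 0.00257). Mat2a, the form of other tissues, stood at 112, 109 and 94.8 CPM in WT and 93.3, 111 and 100.1 CPM in 0d and overlapped (adjusted p = 0.862). Ahcy, which removes the product of methylation, fell from 1328, 915 and 1381 CPM to 252, 302 and 310.3 CPM (log2 fold change -2.07 ± 0.28, adjusted p = 0.000112). For Mat1a and Ahcy all 0d libraries lay below those of WT. Mthfd2, the mitochondrial folate enzyme of growing cells and a known Atf4 target, rose from 1.61, 2.43 and 0.858 CPM to 9.16, 6.90 and 8.02 CPM (2.29 ± 0.44). Amino acid carriers rose in 14 and fell in 12 of 32 (9 rises leaving out WT replicate 1 or 3). Slc1a4, a carrier of alanine, serine and cysteine, stood at 8.41, 18.99 and 2.90 CPM in WT and 129, 94.8 and 115 CPM in 0d (3.48 ± 0.79). Slc3a1, the heavy chain of a cystine carrier of kidney and liver, fell from 156, 83.4 and 83.3 CPM to 3.02, 3.01 and 4.18 CPM (log2 fold change -4.98 ± 0.66, adjusted p = 9.16e-05). Mthfd2 and Slc1a4 stood higher, and Slc3a1 lower, in each 0d library than in any WT library.

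Enzymes that handle steroids and foreign compounds were mostly lower. Steroid hormone enzymes fell in 15 of 23 and rose in 1 (4 rises under library totals). Hsd17b6, which oxidises androgen metabolites, fell from 405, 329 and 195 CPM to 4.67, 5.40 and 6.97 CPM (log2 fold change -5.77 ± 0.60, adjusted p = 2.11e-05). Hsd11b1, which makes active glucocorticoid inside the cell, fell from 479, 396 and 524 CPM to 42.4, 40.2 and 38.3 CPM (log2 fold change -3.53 ± 0.50, adjusted p = 0.000142). Srd5a1, a steroid 5-alpha reductase, fell from 39.5, 51.0 and 89.7 CPM to 3.80, 3.98 and 4.79 CPM (-3.84 ± 0.69). For Hsd17b6, Hsd11b1 and Srd5a1 all 0d libraries lay below those of WT. Cytosolic sulfotransferases fell in 9 of 15 with no rise called (1 rise leaving out WT replicate 3 or 0d replicate 3), 1 rise at an unadjusted p of 0.05, 0 by DESeq2 and 3 by limma-voom, and Sult5a1 went from 25.3, 11.9 and 15.99 CPM to 0.173, 0.0885 and 0.0872 CPM (log2 fold change -7.10 ± 1.40, adjusted p = 0.00127). Carboxylesterases fell in 11 of 14 and rose in 1 (2 rises leaving out WT replicate 2). Ces3a, a member of this family, fell from 1469.8, 1311 and 1072 CPM to 10.9, 10.8 and 25.5 CPM (log2 fold change -6.35 ± 0.83, adjusted p = 8.39e-05). Glucuronosyltransferases rose in 5 and fell in 5 of 18, with Ugt2b35 rising from 82.7, 114 and 61.7 CPM to 396, 399 and 404 CPM (2.21 ± 0.25). Ugt2b35 stood higher, and Sult5a1 and Ces3a lower, in each 0d library than in any WT library. Ugt2a3 fell from 188, 196 and 169 CPM to 15.9, 20.6 and 15.2 CPM (-3.42 ± 0.64). Carboxylesterases and glucuronosyltransferases are families of similar genes, whose split of reads is uncertain.

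Single genes whose level in mouse liver is known to depend on sex or growth hormone are given here. No fixed list holds such genes as a group, they were chosen after their values were seen, and neither group held Y-linked transcripts above 3 counts. Sult3a1, a sulfotransferase of female liver, stood at 16.5, 22.8 and 274 CPM in WT and 0.605, 0.531 and 0.0872 CPM in 0d (-7.96 ± 1.06), with WT replicate 3 far above the other WT libraries. Cyp3a41a and Cyp2c69, P450 enzymes of female liver, fell as well. Cyp2c69 went from 482, 687 and 1299 CPM to 0.778, 0.797 and 5.14 CPM (log2 fold change -8.51 ± 0.69, adjusted p = 2.83e-06). Cyp3a41a went from 811, 177 and 2799.7 CPM to 1.81, 2.74 and 15.2 CPM (-7.58 ± 1.40). For Sult3a1, Cyp2c69 and Cyp3a41a all 0d libraries lay below those of WT. Cyp4a12a, a P450 of male liver, rose from 0.921, 12.8 and 1.82 CPM to 89.8, 94.1 and 118 CPM (log2 fold change 4.27 ± 0.69, adjusted p = 0.000332). The major urinary proteins Mup1, Mup2, Mup3, Mup10 and Mup18, which growth hormone and androgens raise, were among the 15 largest falls. Mup10 fell from 4993, 1779.6 and 3634 CPM to 6.83, 6.82 and 17.2 CPM (-8.40 ± 1.25), and WT levels of these genes spread over several fold. Esr1, the estrogen receptor, fell from 26.1, 35.2 and 16.5 CPM to 4.41, 3.81 and 4.79 CPM (log2 fold change -2.58 ± 0.28, adjusted p = 2.73e-05). Cyp4a12a stood higher, and Mup10 and Esr1 lower, in each 0d library than in any WT library. Mup and Cyp3a genes are near copies, so the values of single members are uncertain.

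Retinoid genes fell in 17 and rose in 4 of 32. Rbp4, the retinol carrier of plasma, fell from 2483, 1979.5 and 2576 CPM to 463, 475 and 477 CPM (log2 fold change -2.31 ± 0.36, adjusted p = 0.000284). Rdh7, a retinol dehydrogenase, fell from 992, 766 and 917 CPM to 119.8, 136 and 138 CPM (-2.76 ± 0.40). Rarres1, a retinoic acid response gene, rose from 39.0, 29.2 and 27.3 CPM to 148, 154 and 168 CPM (log2 fold change 2.30 ± 0.24, adjusted p = 2.11e-05). For Rarres1 all 0d libraries lay above those of WT, and for Rbp4 and Rdh7 all lay below. Nuclear receptors fell in 10 and rose in 4 of 30 (2 rises leaving out WT replicate 1, 6 falls under library totals). Nr1i3, the xenobiotic receptor CAR, fell from 127, 126 and 224 CPM to 25.1, 28.9 and 28.3 CPM (log2 fold change -2.54 ± 0.35, adjusted p = 0.000114). Nr1h3, the oxysterol receptor LXR alpha, fell from 102, 93.7 and 99.7 CPM to 44.8, 51.3 and 45.0 CPM (-1.07 ± 0.20). Ppara, the receptor of fatty acid oxidation, stood at 215, 286 and 203 CPM in WT and 177, 195 and 143 CPM in 0d and did not pass (adjusted p = 0.322). Nr1i3, Nr1h3 and Ppara stood lower in each 0d library than in any WT library.

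Of 35 iron, zinc and copper genes 10 (28.6%) rose and 9 (25.7%) fell, against 18.3% and 19.0% of all genes. Hamp2, a hepcidin gene of mouse, fell from 538, 308 and 539.9 CPM to 13.7, 11.3 and 20.1 CPM (log2 fold change -4.94 ± 0.60, adjusted p = 5.5e-05), while Hamp, the hepcidin that controls iron export, overlapped at 139.7, 78.2 and 728 CPM in WT and 104, 91.4 and 176 CPM in 0d. Slc30a10, a manganese exporter, fell from 38.0, 50.4 and 68.2 CPM to 1.38, 1.15 and 1.39 CPM (log2 fold change -5.30 ± 0.65, adjusted p = 5.99e-05). For Hamp2 and Slc30a10 all 0d libraries lay below those of WT. Slc39a4, a zinc importer best known from intestine, rose from 63.2, 71.8 and 72.3 CPM to 219, 233 and 215 CPM (log2 fold change 1.69 ± 0.23, adjusted p = 9.84e-05).

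Transcription factors of the immediate early, AP-1, Krueppel-like and ETS families rose in 21 and fell in 5 of 33 (3 falls leaving out WT replicate 1 or 0d replicate 1, 3 falls under library totals). Myc rose from 2.99, 9.18 and 3.97 CPM to 47.8, 47.5 and 58.2 CPM (log2 fold change 3.24 ± 0.53, adjusted p = 0.000368). Jun rose from 21.3, 20.4 and 7.62 CPM to 71.7, 59.0 and 63.4 CPM (1.98 ± 0.38). Klf6, an injury-induced factor, rose from 12.4, 21.2 and 9.34 CPM to 78.5, 79.9 and 82.1 CPM (2.48 ± 0.56). Myc, Jun and Klf6 stood higher in each 0d library than in any WT library. Klf10 fell from 60.8, 41.997 and 53.1 CPM to 18.2, 15.8 and 17.3 CPM (-1.60 ± 0.26). Ehf, an ETS factor of epithelia, rose from 0.345, 0.633 and 0.537 CPM to 9.85, 6.99 and 10.5 CPM (log2 fold change 4.13 ± 0.67, adjusted p = 0.000332). For Ehf all 0d libraries lay above those of WT, and for Klf10 all lay below.

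Clock genes, which Hdac3 is known to act on through the receptors Nr1d1 and Nr1d2, changed in 4 upward and 2 downward of 23 tested, against 18.3% and 19.0% of all genes (2 rises leaving out WT replicate 3, 0 falls leaving out WT replicate 3, 1 fall leaving out 0d replicate 1 or 3, 4 falls leaving out WT replicate 2, 1 fall under library totals). Nr1d1 stood at 244, 117 and 106 CPM in WT and 148, 87.7 and 90.3 CPM in 0d and overlapped (adjusted p = 0.55). Dbp, an output gene with a large daily swing, stood at 63.7, 6.23 and 4.72 CPM in WT and 57.5, 60.8 and 68.1 CPM in 0d, with WT replicate 1 near the 0d libraries and the other WT libraries far below, and did not pass. Arntl, a core activator that Nr1d1 represses, stood at 8.29, 18.8 and 27.9 CPM in WT and 8.99, 6.73 and 7.23 CPM in 0d, with overlap (log2 fold change -1.26 ± 0.34, adjusted p = 0.00955), and its call ended without WT replicate 3 (adjusted p = 0.0692), where the fold change was -0.83. Dbp overlapped between the groups. Wee1, a cell cycle kinase under clock control, rose from 4.72, 3.27 and 2.68 CPM to 21.5, 16.6 and 17.95 CPM (log2 fold change 2.39 ± 0.55, adjusted p = 0.00354). The labels give no hour of collection, and its part in these values cannot be told apart from genotype.

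Of 37 death regulators 13 rose and 7 fell (4 falls under library totals). Of 46 repair genes 7 (15.2%) rose and 4 (8.70%) fell, both below the 18.3% and 19.0% of all genes (3 rises leaving out WT replicate 3, 4 rises leaving out WT replicate 1 or 0d replicate 1, 11 rises under library totals, 1 fall leaving out 0d replicate 1 or 2, 1 fall under library totals). Casp12, a caspase of the endoplasmic reticulum, rose from 1.497, 1.27 and 1.40 CPM to 17.1, 19.7 and 17.5 CPM (log2 fold change 3.70 ± 0.67, adjusted p = 0.000689). Gadd45a rose from 1.84, 2.64 and 2.25 CPM to 10.8, 9.21 and 10.98 CPM (2.19 ± 0.40), while its relative Gadd45g fell from 9.67, 15.4 and 12.1 CPM to 2.77, 4.69 and 4.01 CPM (-1.70 ± 0.38). For Casp12 and Gadd45a all 0d libraries lay above those of WT, and for Gadd45g all lay below. Cdkn1a, the p21 inhibitor, stood at 12.7, 21.2 and 92.0 CPM in WT and 93.0, 76.7 and 87.7 CPM in 0d, with WT replicate 3 among the 0d values, and did not pass. Cdkn2b, the p15 inhibitor, stood at 0.23, 0.528 and 0.107 CPM in WT and 3.28, 1.68 and 2.53 CPM in 0d (3.05 ± 0.78). Cdkn2b stood higher in each 0d library than in any WT library.

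The largest rises outside the groups above were in genes near 0 in WT. Where a group held 1 to 3 counts in all, the ratio of summed counts is given in place of the fitted fold change. Serpinb9e, one of a cluster of similar protease inhibitors, had no count in WT and 35.2, 62.9 and 18.999 CPM in 0d, at least 356-fold higher when WT is set to 3 counts over the group. Serpinb9f of the same cluster stood at 0, 0.106 and 0 CPM in WT and 13.5, 16.5 and 7.93 CPM in 0d (346-fold higher by summed counts, 95% counting interval 61.9 to 13715). Sprr1a, a cornified envelope protein known from injured neurons and epithelia, stood at 0.345, 0.211 and 0.429 CPM in WT and 119.8, 104 and 92.7 CPM in 0d (log2 fold change 8.27 ± 1.81, adjusted p = 0.00256). For Serpinb9e, Serpinb9f and Sprr1a all 0d libraries lay above those of WT. Tekt5, a tektin of sperm flagella, stood at 0.115, 0 and 0 CPM in WT and 7.86, 10.6 and 11.2 CPM in 0d (272-fold higher by summed counts, 95% counting interval 48.5 to 10776), and Insyn1, a protein of inhibitory synapses, at 0, 0 and 0.215 CPM in WT and 13.6, 20.3 and 17.7 CPM in 0d (236-fold higher by summed counts, 95% counting interval 64.9 to 1950.3). Hbb-b1 and Hbb-b2 also stand among these rises, with Hbb-b1 at 89.9, 1.33 and 145 CPM in 0d, and both calls ended under limma-voom with quality weights (adjusted p = 0.429 for Hbb-b1 and 0.329 for Hbb-b2). Tekt5, Insyn1 and Hbb-b1 stood higher in each 0d library than in any WT library. The largest fitted fall was Lrtm1, a leucine-rich repeat membrane protein, from 24.8, 46.5 and 20.9 CPM to 0, 0.0885 and 0 CPM (1064-fold lower by summed counts, 95% counting interval 190.4 to 42059, adjusted p = 5.47e-06).

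**Figure D4:**
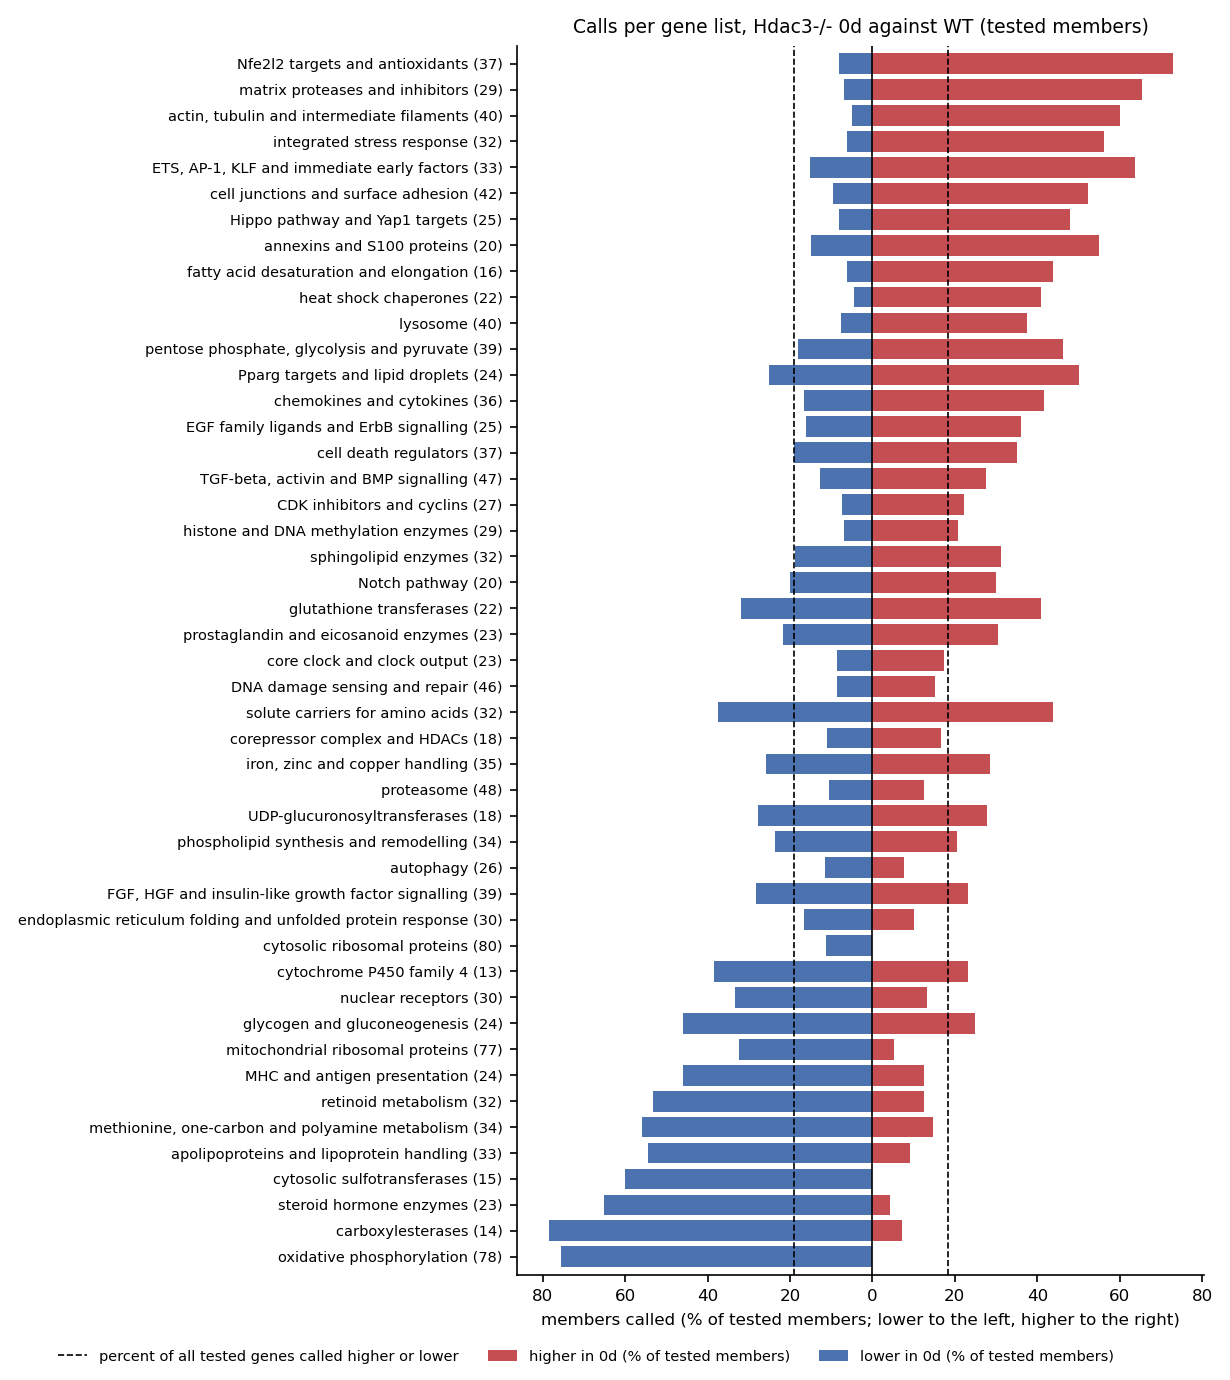
Percent of tested members called higher (red, to the right) or lower (blue, to the left) in 0d for each list of a pathway or gene family, cell type markers left out, with the number tested in brackets and dashed lines at 18.3% and 19.0%, the shares among all genes. Among these lists Nfe2l2 targets lead upward with 73.0%, and carboxylesterases reach 78.6% downward.

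The same genes were read in the livers labelled Alb-Cre:Hdac3-/- 7, 21 and 50 days after sPH, with 4, 4 and 3 libraries. Those livers held the 4 Y-linked transcripts at 41.5 to 94.4 CPM, and Hbb-b1 and Hbb-b2 at 85.2 to 247.6 CPM, so no test against 0d is given. Gclc lay at 2802, 2646 and 2440.5 CPM in 0d and at 279 to 789, 357 to 838 and 316 to 542 CPM on the later days, outside the 0d values. Abcc4 lay at 12.6 to 177, 13.7 to 297 and 15.5 to 72.6 CPM, also below every 0d library. Nrg1 ranged over 0.124 to 2.72, 0.424 to 5.39 and 1.34 to 1.72 CPM. Igf1 lay at 206 to 639.7, 278 to 587 and 403 to 620.0 CPM, above its 0d level of 57.5, 64.2 and 72.9 CPM. Cox8a lay at 78.3 to 91.8, 69.9 to 105 and 68.1 to 95.6 CPM, also above 0d. Gstm3 reached the 0d range at 21 days and not at 7 or 50 days, with ranges of 797 to 7330.5, 916 to 8873 and 1266 to 2127 CPM. Smpd3 overlapped 0d at 7 and 21 days and lay above it at 50 days, at 15.3 to 60.6, 30.1 to 55.2 and 69.8 to 93.5 CPM. Cyp4a12a lay higher on all later days, at 175 to 493, 333 to 508 and 177 to 292 CPM.

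**Figure D5:**
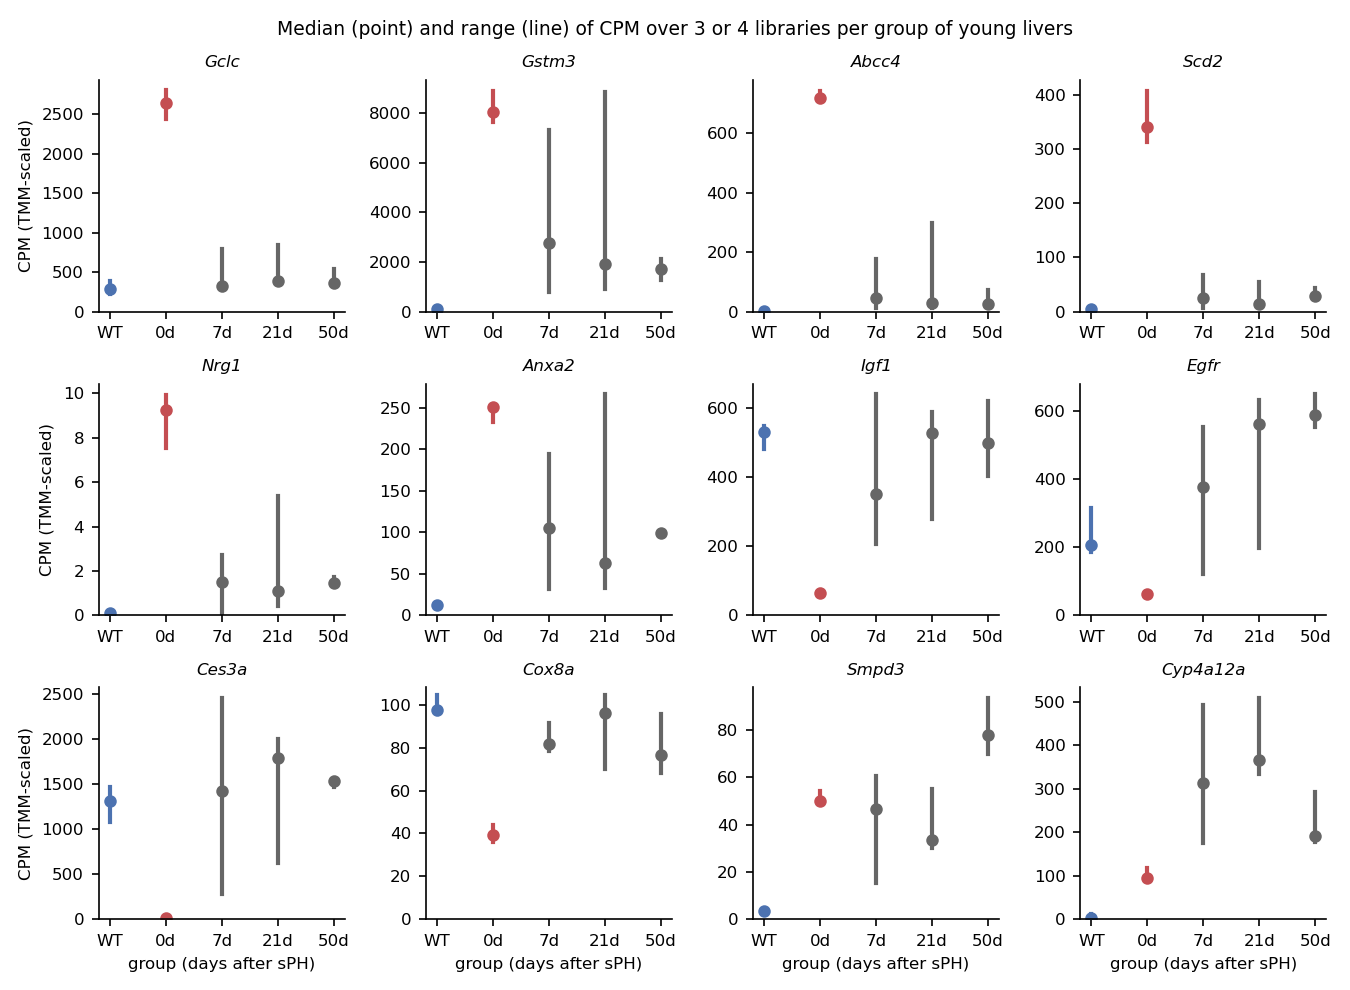
CPM of 12 genes in WT, 0d, 7d, 21d and 50d livers, with a point at the median and a line over the range of 3 or 4 libraries, on linear axes from 0. Gclc, Abcc4, Scd2 and Nrg1 are highest in 0d, and Igf1, Egfr, Ces3a and Cox8a are lowest there.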

How the data were processed

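RNA of 26 mouse liver samples was sequenced, and 17 livers aged 2 to 3 months were used here, of which 6 form the comparison. The submitters' processing notes name HISAT, Bowtie2 and the build mm10, with the counting tool not given in the sources used here. Each deposited table gives per gene the authors' expected count, an estimate of reads that need not be whole, and the authors' FPKM, per the file headers. A gene missing from a table was taken as 0 and expected counts were rounded. Symbols and coordinates are those of RefSeq GRCm38.p6, the assembly of mm10, matched for 18880 of 18943 genes by gene ID and 11 by accession.

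The 17 livers were fitted together after filterByExpr and TMM scaling (13617 genes) with the 2-sided quasi-likelihood test of edgeR 4.0.16 in R 4.3.3, with Benjamini-Hochberg adjustment at 0.05. For a bound, a group without counts was given 3 counts in all, and bounds and counting intervals cover counting error alone. Alternatives were DESeq2 1.42.0, limma 3.58.1 (voom, and log2(FPKM + 1) or log2(FPKM + 0.1)), other scalings and filters, 6 libraries alone, a replicate block, and each library left out. The fit was tested on simulated counts in which few genes changed, evenly upward and downward, with a spread shared by all groups. Changes in as many genes as were called here were not simulated.

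The members, 58 gene lists and tests were chosen with earlier results of these data known. Named genes were the 15 largest rises and falls called without overlap at 5 CPM or more, without pseudogenes, number-only models and hepatocyte or duct markers. To these came up to 6 members per list with the smallest adjusted p, and each list's anchor genes. The text gives a part of them. RefSeq promoter windows, present for 10803 tested genes, were searched for 6 motifs on both strands. No replicate pair matched within sampling noise, with a chi-square over its degrees of freedom of 38.2 to 45.0 in WT and 7.25 to 9.81 in 0d.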

Additional observations from a re-analysis of the deposited data

How the results depend on the processing

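The count of changed genes, 5082, fell to 2901 at an adjusted p of 0.01 (1345 higher, 1556 lower) and to 3070 with a 2-fold minimum (1395 lower). Lower calls fell from 2592 to 1551 under library totals, to 1510 by limma-trend on log2(FPKM + 1), and to 1519 with 0.1 added in place of 1, while higher calls went from 2490 to 3823 with 1 added. Library totals moved the median of all genes by 0.30 on the log2 scale, and the cause of the FPKM counts was not tested. Without 1 library the changed genes numbered 3752 to 4871, the higher 1753 to 2401 and the lower 1972 to 2470. The other alternatives kept all counts within 1.5 times.

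With a replicate block the 6 libraries gave 5383 changed genes (2758 higher, 2625 lower), against 5877 without it. Equal numbers correlated at -0.028, 0.053 and 0.12, so they share only a number. The call of Hdac3 ended with the block (log2 fold change 0.43, adjusted p = 0.0530). Of 367 named genes called, 278 were called under every alternative, 89 were not under at least 1, and none reversed. Leaving out WT replicate 3 ended the calls of 32 of them and leaving out WT replicate 1 those of 30, against 11 to 25 for each of the others. Depth limits the genes near 1 CPM most, which rest on few counts.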
